A study of Mus musculus with 27 samples.

Results

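Grhl1, Grhl2, Grhl3, Ovol1, Prdm1, Klf4, Zfp750 and Maf are 8 transcription factors of epidermal differentiation that were chosen by name, with no measured value in the rule. The choice was made with earlier results of these data known, and the study itself reports Grhl1 and Grhl3 as strongly downregulated. Shares of members set against all genes are therefore a description. The members made up 8 of the 51906 genes in the RNA-seq table and 8 of the 32285 genes in the skin matrices. All 8 had enough reads to be tested in RNA-seq. RNA-seq was performed on cultured hair follicle stem cells (HFSCs) that were derived in telogen, the resting phase of the hair cycle, from wild-type or Rxra cKO mice at postnatal day 55. HFSCs labelled as from mouse 1 and mouse 2 of each genotype were grown in FBS medium, which holds serum, or in atRA+PKCi medium, which is serum-free and contains all-trans retinoic acid (atRA) and the protein kinase C inhibitor Go6976. Rxra encodes retinoid X receptor alpha, which binds DNA as a partner of the retinoic acid receptors (RARs). In the cross that the methods name for the knockout, Sox9-CreER;Rxra-fl/fl;Rosa26-YFP, an inducible Cre recombinase is made where Sox9 is expressed, so deletion depends on that promoter and on induction. All lines had been established on mitomycin-inactivated feeder cells before 3D culture. The 2 media differ at least in serum, atRA and PKCi together. The methods also list the B-27 supplement and cholesterol in the serum-free medium. The part of each cannot be told apart. Single cell RNA-seq was performed on wild-type back skin in full anagen (AnaVI), the growth phase, at postnatal day 32, and on cultures of HFSCs from the same 2 wild-type mice. These cultures were tagged with hashtags, antibodies with a barcode that record the culture of each cell, and pooled.

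The epidermis renews as basal keratinocytes leave the basement membrane, stop dividing and build a cornified envelope of crosslinked proteins and lipids. Grainyhead-like factors (Grhl1, Grhl2 and Grhl3), Ovol1, Prdm1 (also called Blimp1), Klf4, Zfp750 and Maf act at successive steps of that program, as activators of junction, envelope and lipid genes or as repressors of basal and progenitor genes. HFSCs do not normally make epidermis, but can do so after wounding, and several of these factors also serve the inner layers of the hair follicle.

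The members lie on 7 mouse chromosomes, and only Grhl3 and Klf4 share a chromosome. In GRCm38 (GENCODE M21), Grhl1 spans chr12:24572283-24617391 on the plus strand and Grhl3 spans chr4:135541888-135573630 on the minus strand. Klf4 spans chr4:55527143-55532466 and Prdm1 spans chr10:44437177-44528501, both on the minus strand. Grhl2 (chr15:37233036-37363569, plus strand), Ovol1 (chr19:5549136-5560646, minus strand), Zfp750 (chr11:121510978-121519333, minus strand) and Maf (chr8:115682942-115707794, minus strand) complete the set. RefSeq windows from 250 bases before to 50 bases after a transcript start (GRCm38.p6) were found for 4 members. They are shown because a window was matched for these members and not for the others. All 4 genes fell in atRA+PKCi in both genotypes, as did Ovol1, for which no window was matched. Capitals mark matches to the AP-1, GRHL, KLF or RAR hexamer letters on either strand. The Grhl1 window is chr12:24572037-24572336, the Grhl3 window chr4:135573583-135573882, the Klf4 window chr4:55532426-55532725 and the Prdm1 window chr10:44458699-44458998, each read 5' to 3' on the strand of its gene. The Prdm1 window lies within the gene, at the start of a transcript shorter than the full span.
Grhl1: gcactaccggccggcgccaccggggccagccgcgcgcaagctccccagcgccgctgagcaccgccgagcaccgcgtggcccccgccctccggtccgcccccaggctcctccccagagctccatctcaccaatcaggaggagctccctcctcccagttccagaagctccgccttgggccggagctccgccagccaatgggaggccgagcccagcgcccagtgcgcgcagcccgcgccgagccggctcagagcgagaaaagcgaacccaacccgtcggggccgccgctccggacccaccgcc
Grhl3: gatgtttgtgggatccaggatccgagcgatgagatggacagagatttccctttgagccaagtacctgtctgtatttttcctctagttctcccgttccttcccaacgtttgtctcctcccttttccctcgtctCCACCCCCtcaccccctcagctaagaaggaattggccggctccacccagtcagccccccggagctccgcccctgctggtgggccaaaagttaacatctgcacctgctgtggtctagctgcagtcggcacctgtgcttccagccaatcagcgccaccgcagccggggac
Klf4: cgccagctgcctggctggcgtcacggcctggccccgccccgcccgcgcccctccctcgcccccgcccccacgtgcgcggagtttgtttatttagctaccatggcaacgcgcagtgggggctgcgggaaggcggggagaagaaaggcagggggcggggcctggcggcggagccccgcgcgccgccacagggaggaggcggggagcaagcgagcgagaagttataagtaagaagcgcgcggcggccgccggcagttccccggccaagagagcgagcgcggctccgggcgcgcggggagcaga
Prdm1: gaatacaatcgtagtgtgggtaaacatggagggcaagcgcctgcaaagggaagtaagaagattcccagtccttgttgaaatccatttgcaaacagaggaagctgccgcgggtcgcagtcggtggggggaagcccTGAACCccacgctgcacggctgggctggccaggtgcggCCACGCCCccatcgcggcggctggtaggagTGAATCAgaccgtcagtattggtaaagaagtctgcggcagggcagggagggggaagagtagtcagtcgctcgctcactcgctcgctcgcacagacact
GC content was 75.3% in the Grhl1 window, 58.3% in Grhl3, 74.3% in Klf4 and 59.7% in Prdm1, against a median of 52.7% over 32851 windows. Motifs were searched on both strands. AP-1 was searched as the letters TGANTCA. The GRHL motif was searched as AACCNGTT and the KLF motif as GGGNGTGG. The E-box was searched as CANNTG, which can lie within other matches. The hexamer bound by RARs and its direct repeats DR1, DR2 and DR5 were searched by name. Prdm1 held an AP-1 match (TGAATCA) at position -48, a KLF match at -78 and a RAR hexamer at -116, counted from the transcript start. Grhl3 held a KLF match at -118. Among all windows, 7.81% held the AP-1 letters, 17.6% the KLF letters and 43.7% a RAR hexamer. No member window held the GRHL letters (2.09% of windows), a DR1 (0.222%), a DR2 (0.268%), a DR5 (0.0974%) or TATAAA (13.6%). E-boxes, present in 72.3% of windows, were found in Grhl3, Klf4 and Prdm1. A second Grhl1 window, chr12:24580469-24580768, had a GC content of 51.3% and of these motifs held only an E-box. A match to letters is a description and not a binding site.

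Library totals lay between about 25150300 and 35879800 counts, and replicates correlated at 0.984 to 0.989 over log2 CPM, the count of a gene scaled to an equal library total. The targeted gene was examined first. Rxra measured 149 and 122 CPM for wild-type in FBS, 147 and 143 for wild-type in atRA+PKCi, 97.2 and 95.7 for Rxra cKO in FBS, and 148 and 145 for Rxra cKO in atRA+PKCi. It was lower in the libraries labelled Rxra cKO in FBS by a log2 fold change of -0.49 (edgeR adjusted p = 0.00264), but not in atRA+PKCi (0.01, edgeR adjusted p = 0.927). Counts are summed over the whole gene, including exons outside the floxed part, so the level of the gene checks the labels only weakly, and each genotype difference is one between libraries labelled so. A list of 8 feeder fibroblast genes summed to 7.89 to 11.9 CPM for wild-type in FBS, 1.32 to 4.44 for wild-type in atRA+PKCi, 6.26 to 8.78 in Rxra cKO FBS and 4.66 to 5.59 in Rxra cKO atRA+PKCi. Of its 5 tested genes, Dcn and Pdgfra were lower in wild-type atRA+PKCi and Pdgfra in Rxra cKO atRA+PKCi. The part of these low levels in the results was not tested. In bulk RNA-seq, fewer cells of a type and less RNA per cell cannot be told apart.

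The first comparison asked how the factors respond when wild-type HFSCs leave serum for atRA+PKCi. All members but Grhl2 were lower in atRA+PKCi, and Prdm1 and Grhl1 fell furthest. Their levels are given in the order of the mouse numbers in the labels.

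Among the grainyhead-like factors, Grhl1, an activator of desmosomal cadherin genes, measured 102 and 97.2 CPM in FBS and 12 and 13.9 in atRA+PKCi. This was a 7.7-fold lower level (log2 fold change -2.95, SE 0.122, edgeR adjusted p = 1.85e-07). Grhl3, which is required for barrier formation and activates Tgm1, measured 43.8 and 36.2 CPM in FBS and 10.2 and 9.47 in atRA+PKCi. Grhl3 was thus 4.06-fold lower (-2.02, SE 0.112, edgeR adjusted p = 1.07e-06). Grhl2, which maintains epithelial junction genes, stood apart. It measured 112 and 96.1 CPM in FBS and 96.3 and 88.4 in atRA+PKCi, so the groups overlapped and the difference did not pass the test (-0.17, SE 0.0838, edgeR adjusted p = 0.113). Without the second wild-type FBS library it did pass (-0.29, edgeR adjusted p = 0.0116). Wherever a library is left out, its group has 1 library, which is assumed to vary like the other groups.

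Ovol1, a repressor that helps keratinocytes leave the cell cycle, measured 52.7 and 47.8 CPM in FBS and 9.40 and 9.76 in atRA+PKCi, a 5.24-fold lower level (-2.39, SE 0.0966, edgeR adjusted p = 1.58e-07). Prdm1, a repressor that serves late epidermal differentiation and the sebaceous gland, went from 61.6 and 61.0 CPM to 1.70 and 1.68. With a 36.2-fold lower level (-5.18, SE 0.211, edgeR adjusted p = 1.69e-07), Prdm1 had the lowest fold change of the 8. Both repressors were separated between the media in every library.

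Klf4, an activator of barrier genes, measured 284 and 250 CPM in FBS and 93.3 and 87.5 in atRA+PKCi. It was 2.96-fold lower (-1.56, SE 0.0878, edgeR adjusted p = 1.19e-06). Zfp750, which works with Klf4 in terminal differentiation, measured 97.6 and 84.6 CPM in FBS and 54.3 and 48.9 in atRA+PKCi, which is 1.77-fold lower (-0.82, SE 0.123, edgeR adjusted p = 0.000527). Maf, a late differentiation activator, measured 209 and 181 CPM in FBS and 131 and 129 in atRA+PKCi, or 1.5-fold lower (-0.58, SE 0.0765, edgeR adjusted p = 0.000237). The smaller folds of Zfp750 and Maf left both genes well expressed. In all, 7 of 8 members fell, against 26.6% of the 15965 tested genes, and the groups did not overlap for 7 of 8, against 74.5% of genes.

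In the Rxra cKO libraries the same change of medium gave smaller decreases and, for 2 members, increases. Grhl1 measured 64.6 and 75.4 CPM in FBS and 49.7 and 41.7 in atRA+PKCi, a log2 fold change of -0.61 (SE 0.111, edgeR adjusted p = 0.0023). Prdm1 measured 45.5 and 67.2 CPM in FBS and 10.2 and 9.09 in atRA+PKCi (-2.55, SE 0.17, edgeR adjusted p = 7.18e-06). It still had the lowest fold change of the members, as in wild-type. Ovol1 measured 41.7 and 47.5 CPM in FBS and 16.1 and 15.3 in atRA+PKCi (-1.50, SE 0.0922, edgeR adjusted p = 4.72e-06). Grhl3 measured 45.4 and 50.5 CPM in FBS and 20.0 in both libraries in atRA+PKCi (-1.26, SE 0.105, edgeR adjusted p = 2.68e-05). Klf4 measured 145 and 162 CPM in FBS and 84.6 and 82.1 in atRA+PKCi (-0.88, SE 0.087, edgeR adjusted p = 7.45e-05). These 5 of 8 members fell, against 22.2% of genes.

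The other members did not fall in Rxra cKO. Zfp750 measured 74.7 and 91.8 CPM in FBS and 125 and 109 in atRA+PKCi, a rise of 0.49 on the log2 scale (SE 0.12, edgeR adjusted p = 0.0102). This call was lost without the first Rxra cKO FBS library (0.38, edgeR adjusted p = 0.0578) and without the first Rxra cKO atRA+PKCi library (0.41, edgeR adjusted p = 0.0699). Maf measured 62.5 CPM in both FBS libraries and 83.0 and 83.4 in atRA+PKCi (0.41, SE 0.0782, edgeR adjusted p = 0.00291). Thus 2 of 8 members rose, against 20.8% of genes. Grhl2 measured 66.8 and 66.3 CPM in FBS and 73.2 and 74.4 in atRA+PKCi, which did not pass the test (0.15, SE 0.0848, edgeR adjusted p = 0.193). The groups did not overlap for any of the 8 members, against 75.2% of genes.

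**Figure D1:**
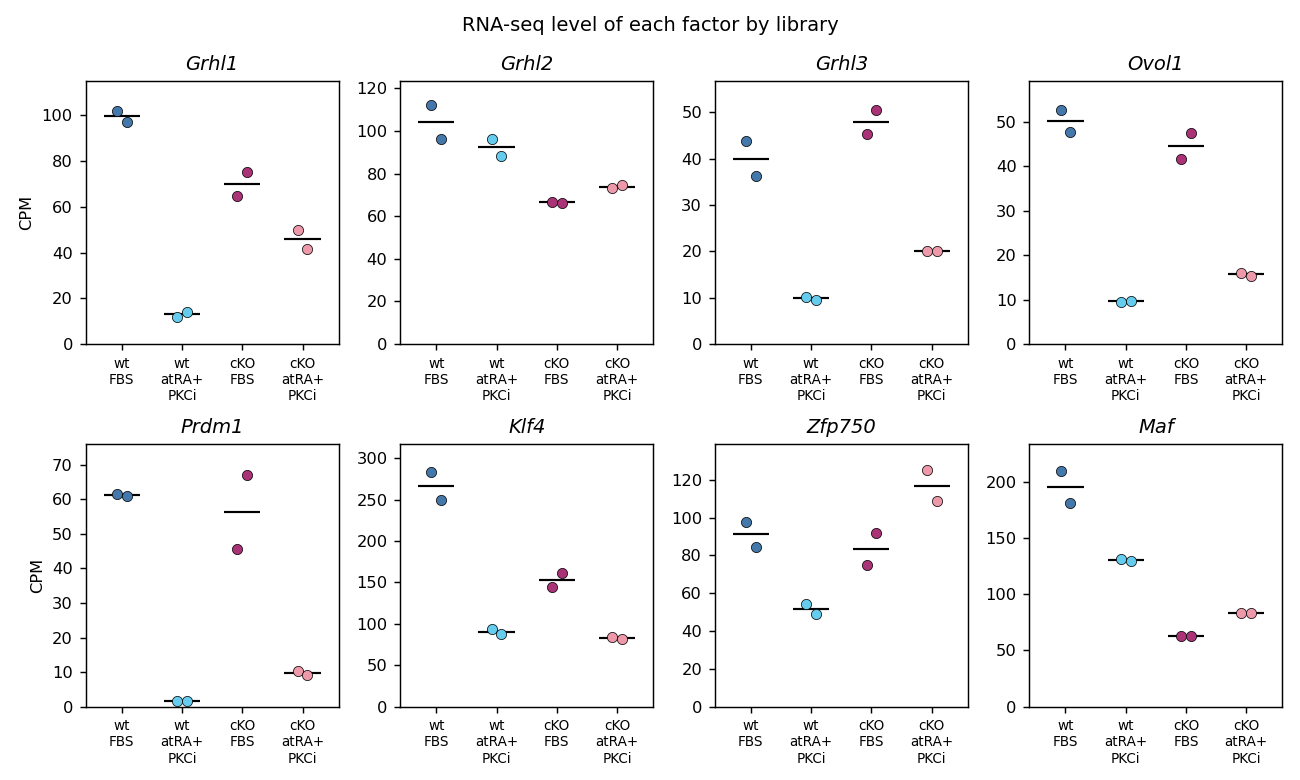
Level of each factor in CPM (linear axes from 0) in the 8 RNA-seq libraries, with 1 point per library and a line at the group mean (n = 2), where wt is wild-type and cKO is Rxra cKO. In wild-type atRA+PKCi, Prdm1 sat at 1.70 and 1.68 CPM and Grhl1 at 12 and 13.9, while Zfp750 was highest in Rxra cKO atRA+PKCi at 125 and 109.

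Whether the response to the medium differed between genotypes was tested directly by an interaction, taken as the log2 fold change in wild-type minus that in Rxra cKO. It was negative and passed the test for 7 of 8 members, against 13.3% of genes. The difference was -2.63 for Prdm1 (SE 0.275, edgeR adjusted p = 0.000269) and -2.33 for Grhl1 (SE 0.163, edgeR adjusted p = 2.91e-05). For Zfp750 it was -1.31 (SE 0.172, edgeR adjusted p = 0.000849) and for Maf -1.0 (SE 0.109, edgeR adjusted p = 0.000336), the pair that fell in wild-type and rose in Rxra cKO. Ovol1 (-0.89, SE 0.132, edgeR adjusted p = 0.00164), Grhl3 (-0.76, SE 0.152, edgeR adjusted p = 0.00721) and Klf4 (-0.69, SE 0.122, edgeR adjusted p = 0.00416) fell in both genotypes and further in wild-type. Grhl2 did not pass (-0.32, SE 0.119, edgeR adjusted p = 0.0835). With the replicate block, which pairs the cultures labelled with the same mouse of a genotype, it did (-0.32, edgeR adjusted p = 0.0467).

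**Figure D2:**
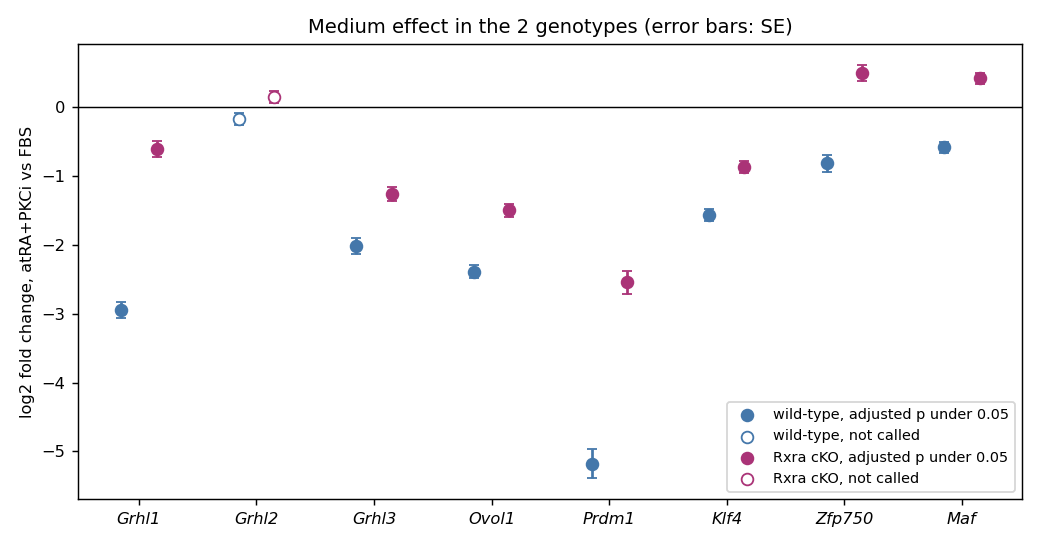
Log2 fold change of atRA+PKCi against FBS for each factor in wild-type and Rxra cKO HFSCs, with SE as error bars and open points where the edgeR adjusted p was not under 0.05. Each wild-type point lies below its Rxra cKO point, with the widest gaps at Prdm1 (-5.18 and -2.55) and Grhl1 (-2.95 and -0.61).

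The genotypes were then compared within each medium. These comparisons use the same libraries as those above, so they restate the levels from the other side. In FBS, Maf was 3.12-fold lower in Rxra cKO (-1.64, SE 0.079, edgeR adjusted p = 1.77e-06). Klf4 (-0.80, edgeR adjusted p = 0.000127), Grhl2 (-0.65, edgeR adjusted p = 0.000393) and Grhl1 (-0.51, edgeR adjusted p = 0.00536) were also lower. Prdm1 (-0.12), Ovol1 (-0.17), Zfp750 (-0.13) and Grhl3 (0.26) did not pass. Thus 4 of 8 members were lower, against 20.5% of genes, and the groups did not overlap for 6 of 8, against 68.4% of genes. For Prdm1 and Grhl3, single libraries decided whether the test was passed. Prdm1 passed as lower without the second Rxra cKO FBS library (-0.43, edgeR adjusted p = 0.0132), and Grhl3 passed as higher without the first wild-type FBS library (0.41, edgeR adjusted p = 0.0113).

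In atRA+PKCi the order was different. Prdm1 was 5.7-fold higher in Rxra cKO (2.51, SE 0.226, edgeR adjusted p = 3.8e-05) and Grhl1 was 3.54-fold higher (1.82, SE 0.121, edgeR adjusted p = 6.72e-06). Zfp750 was 2.27-fold higher (1.18, edgeR adjusted p = 8.81e-05), Grhl3 2.03-fold (1.02, edgeR adjusted p = 0.000125) and Ovol1 1.64-fold (0.72, edgeR adjusted p = 0.000455). So 5 of 8 members were higher, against 23.0% of genes. Maf was lower in Rxra cKO (-0.64, edgeR adjusted p = 0.000211), as did Grhl2 (-0.32, edgeR adjusted p = 0.0135), which makes 2 of 8 lower against 20.2% of genes. The Grhl2 call was lost without the first wild-type atRA+PKCi library (-0.23, edgeR adjusted p = 0.125), without the first (-0.28, edgeR adjusted p = 0.106) or second (-0.33, edgeR adjusted p = 0.0721) Rxra cKO atRA+PKCi library, and with limma (-0.30, adjusted p = 0.105 or 0.108). Klf4 did not pass (-0.12, edgeR adjusted p = 0.317). The groups did not overlap for any of the 8 members, against 76.5% of genes.

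Levels of different genes were compared per length, as CPM per kilobase of exons. In wild-type FBS, Klf4 led at 87.6, followed by Zfp750 at 28.2 and Maf at 23.7, and Prdm1 was lowest at 11. In wild-type atRA+PKCi, Klf4 (29.6), Zfp750 (16) and Maf (15.8) kept the top places, while Prdm1 fell to 0.303, below Grhl1 at 2.34 and Ovol1 at 2.75. In Rxra cKO FBS, Klf4 led at 50.2 and Maf was lowest at 7.58, close to Grhl2 at 7.73. In Rxra cKO atRA+PKCi, Zfp750 at 36.3 stood above Klf4 at 27.3, and Prdm1 was again lowest, at 1.73.

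The genes of the program that these factors serve were examined as lists. Among all tested genes, 26.6% were lower and 27.2% higher in wild-type atRA+PKCi, and 22.2% were lower and 20.8% higher in Rxra cKO atRA+PKCi. Of 17 cornified envelope genes, 16 were lower and 0 higher in wild-type atRA+PKCi, with a median log2 fold change of -6.3, against a median of 0.0343 over all tested genes. Cnfn, an envelope protein, measured 328 and 367 CPM in wild-type FBS against 0.321 and 0 in atRA+PKCi, and Hrnr, a filaggrin-like protein, 43.9 and 35.9 against 0.0641 and 0.095. Ppl, which encodes periplakin, fell less (-1.74, edgeR adjusted p = 2.79e-06), and Ivl, which encodes involucrin, did not pass (-0.26, edgeR adjusted p = 0.0866). In Rxra cKO, 16 of the 17 also fell, with a median of -2.19. The interaction passed as negative for 16 of 17 and as positive for 1, against 13.3% and 11.3% of genes.

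All 13 tested suprabasal keratinocyte genes were lower in wild-type atRA+PKCi (median -4.47), against 10 lower and 2 higher in Rxra cKO (median -1.65). Krtdap, a keratinocyte differentiation protein, measured 749 and 968 CPM in wild-type FBS and 0.802 and 0.982 in atRA+PKCi, whereas the Rxra cKO libraries held 222 and 313 in FBS and 88.5 and 82.4 in atRA+PKCi. Lypd3 (-2.14, edgeR adjusted p = 7.84e-07) and Dmkn (-3.52, edgeR adjusted p = 4.77e-08), a secreted keratinocyte protein, fell least of the list in wild-type. The desmosomal cadherin gene Dsc1 measured 212 and 173 CPM in wild-type FBS and 0.289 and 0.0317 in atRA+PKCi. Among 14 lipid and protease genes, 13 fell in wild-type (median -5.43) and 12 in Rxra cKO (median -2.18). Klk5, a protease of the cornified layer, measured 21.7 and 22.1 CPM in wild-type FBS and had 0 counts in both atRA+PKCi libraries, so it was at least 458-fold lower against a floor of 3 counts over the group. The lipoxygenase gene Alox12b measured 75.4 and 68.1 CPM in FBS against 0.0641 and 0. Cers3, a ceramide synthase gene, fell by 2.94 on the log2 scale (edgeR adjusted p = 4.09e-08), and St14, which encodes matriptase, did not pass (0.04, edgeR adjusted p = 0.669).

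Between the genotypes in atRA+PKCi, 13 of the 17 envelope genes, 12 of the 13 suprabasal genes and 12 of the 14 lipid and protease genes were higher in Rxra cKO and 0 were lower, with medians of 2.48, 2.31 and 2.26. In FBS, 11, 12 and 8 of them were lower and 2, 1 and 1 higher, against 20.5% lower and 22.3% higher among all genes.

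The remaining lists moved less. Of 13 junction genes, 8 fell and 1 rose in wild-type (median -0.371), and 4 fell in Rxra cKO (median -0.288), the latter near the share of all genes. Cldn1, a tight junction gene, fell in wild-type (-3.30, edgeR adjusted p = 7.79e-07), and so did the desmoplakin gene Dsp (-1.89, edgeR adjusted p = 2.1e-06), while Ocln rose (2.01, edgeR adjusted p = 2.16e-06). Epcam reached only 1.53 CPM in any library and did not pass. Of 12 basal keratinocyte genes, 11 fell in wild-type (median -0.927) and 9 fell and 2 rose in Rxra cKO (median -0.921), among them the laminin gene Lamb3 in wild-type (-2.23, edgeR adjusted p = 1.3e-07). Krt5 fell less (-0.40, edgeR adjusted p = 0.00223), and Dst did not pass (-0.21, edgeR adjusted p = 0.0824).

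Of 26 related transcription factors of skin, 15 fell and 6 rose in wild-type atRA+PKCi (median -0.79, or -0.66 with Tfap2b, absent from a group, at its bound), and 8 fell and 8 rose in Rxra cKO (median 0.0167). The 6 that rose in wild-type and the counts in Rxra cKO were near the shares of all genes. Hopx measured 317 and 365 CPM in wild-type FBS and 2.18 and 2.34 in atRA+PKCi (-7.23, edgeR adjusted p = 1.15e-08). Pou2f3 stayed under 1 CPM in wild-type but measured 2.44 and 2.57 CPM in Rxra cKO atRA+PKCi, above 0.503 and 0.389 in Rxra cKO FBS. Ehf (1.29, edgeR adjusted p = 6.65e-06) and Cebpd (0.95, edgeR adjusted p = 0.000167) rose in wild-type.

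Of 6 genes named as targets of these factors in background knowledge, 2 fell and 1 rose in wild-type atRA+PKCi, which is near the shares of all genes. Tgm1, a Grhl3 target that crosslinks the envelope, fell in wild-type (-4.34, edgeR adjusted p = 5.85e-07) and in Rxra cKO (-2.19, edgeR adjusted p = 3.15e-05). Dsg1a, a Grhl1 target, measured 172 and 139 CPM in wild-type FBS and 0.312 and 0.402 in atRA+PKCi. In Rxra cKO it measured 46.3 and 63.4 CPM in FBS and 52.6 and 43.6 in atRA+PKCi, and the interaction passed (-8.52, edgeR adjusted p = 2.31e-06). The Grhl2 targets Cdh1 (0.09, edgeR adjusted p = 0.46) and Cldn4 (0.10, edgeR adjusted p = 0.355) did not pass in wild-type. Id2, an inhibitor of basic helix-loop-helix factors, rose in wild-type (1.35, edgeR adjusted p = 6.62e-06), and Myc, a Prdm1 and Ovol1 target, did not pass there (edgeR adjusted p = 0.984) but rose in Rxra cKO (0.75, edgeR adjusted p = 0.000109).

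The hashtagged cultures gave a second view of the factors in HFSCs. HTODemux called 372 and 175 singlets among 449 and 208 barcodes, and 222 and 78 were kept. All cultures but B-27, which is serum-free supplement alone, and FBS held atRA+PKCi. UMIs were summed by mouse and condition. The sums held 5 and 10 cells in B-27, 113 and 13 with BMP2/4, 5 and 6 with R-spondin (Rspo), 92 and 27 with Rspo+BMP2/4, and 5 and 21 with the RAR inhibitor (RARi) added. FBS had 0 kept cells, and atRA+PKCi alone had 2 and 1, so neither was tested. B-27 and BMP2/4 cultures thus differ in BMP2/4, atRA and PKCi, whose parts cannot be told apart. BMP2 and BMP4 are bone morphogenetic proteins, and Rspo potentiates WNT signaling.

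Prdm1 and Klf4 were lower with BMP2/4 and atRA+PKCi than in B-27, and no other member passed the test. Prdm1 measured 122 and 369 CPM in B-27 (23 and 81 UMIs) and 16 and 13.7 with BMP2/4 (59 and 7 UMIs), a log2 fold change of -3.90 (SE 0.584, edgeR adjusted p = 0.00017). Klf4 measured 233 and 296 CPM in B-27 and 65.2 and 47.0 with BMP2/4 (-2.09, SE 0.465, edgeR adjusted p = 0.0049). These 2 of 7 tested members passed the rule for cells, which asked for an adjusted p under 0.01 and a change of more than 1 on the log2 scale, against 5.28% of the 6265 tested genes. Grhl1 measured 90.0 and 109 CPM in B-27 and 25.4 and 21.5 with BMP2/4 (-1.91, SE 0.53, edgeR adjusted p = 0.0233), which missed that rule. Grhl2 (175 and 173 CPM against 57.4 and 84.2), Ovol1 (26.5 and 54.6 against 15.7 and 11.7) and Zfp750 (74.1 and 36.4 against 16.8 and 31.3) were lower in each mouse of the pair without passing, at edgeR adjusted p = 0.149, 0.167 and 0.175. At an unadjusted p under 0.05, 6 of 7 members differed, against 24.1% of genes. Maf measured 238 and 296 CPM in B-27 and 230 and 282 with BMP2/4 (0.02, SE 0.483, edgeR adjusted p = 0.98). Grhl3, with 21.2 and 18.2 CPM from 4 UMIs in each B-27 sum and 2.43 and 1.96 with BMP2/4, did not reach the filter on low counts.

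These calls rested on few cells. The Prdm1 call was lost without the first BMP2/4 sum (-4.14, edgeR adjusted p = 0.0115) and without the second B-27 sum (-2.68, edgeR adjusted p = 0.0115), and the Klf4 call was lost without any 1 of the 4 sums (edgeR adjusted p from 0.0158 to 0.161). Grhl1 was called (-1.80, edgeR adjusted p = 0.00431) when cells were assigned by at least 70% of their hashtag counts. In the same comparison, 9 of 11 tested cornified envelope genes, 9 of 10 suprabasal genes and 7 of 10 lipid and protease genes were lower and 0 higher, with medians of -3.72, -3.81 and -4.67 against 0.00876 over all genes. Of the related factors 4 of 16 were lower, and of the junction genes 3 of 10. Among 12 basal keratinocyte genes 0 were called, with a median of 0.703.

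Adding Rspo to BMP2/4 gave no call among the members with edgeR (0 of 7) or DESeq2 (0), and 0 members had an unadjusted p under 0.05, against 0.702% of genes. Their log2 fold changes lay between -0.47 for Prdm1 (SE 0.627) and 0.40 for Klf4 (SE 0.444). Adding RARi to Rspo+BMP2/4 also gave 0 calls with either tool. At an unadjusted p under 0.05, 2 of 7 members differed, both higher, against 3.70% of genes in either direction. Grhl1 measured 29.6 and 37.9 CPM without RARi and 239 and 53.1 with it (1.54, SE 0.517, edgeR adjusted p = 0.959), and Ovol1 13.8 and 14 against 83.2 and 34.8 (1.58, SE 0.564, edgeR adjusted p = 0.959). The first RARi sum, with 5 cells and 96141 UMIs, was the highest for both genes. In the Rspo cultures Prdm1 and Ovol1 had 0 UMIs in both mice, of 137076 and 145320 UMIs, which allows up to 21.9 and 20.6 CPM and covers counting error only.

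**Figure D3:**
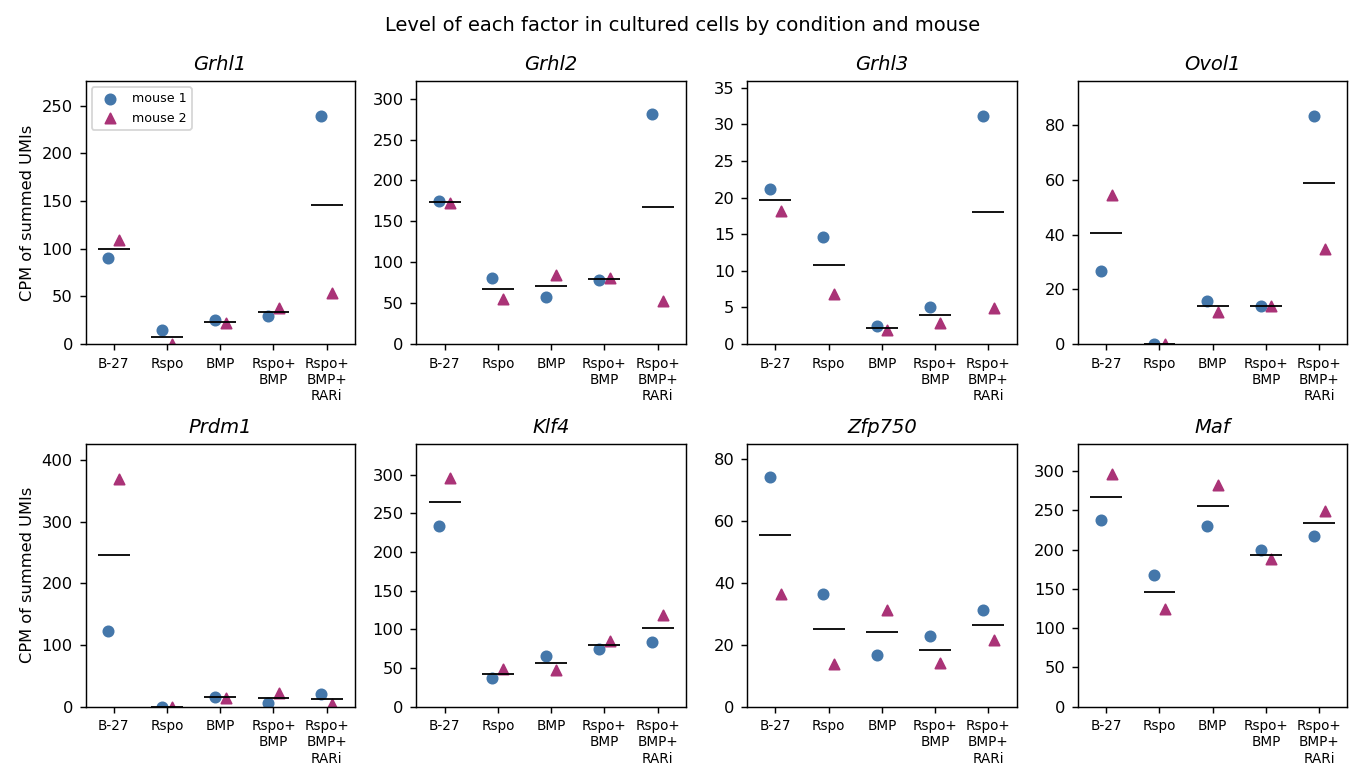
Level of each factor in CPM of summed UMIs (linear axes from 0) for the 2 mice in 5 culture conditions, with a line at the mean of both mice, where BMP is BMP2/4. Prdm1 at 122 and 369 and Klf4 at 233 and 296 were highest in B-27, and Maf lay between 124 and 296 in all 5 conditions.

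In anagen skin, the matrices held 16521 and 16068 barcodes, of which 13624 and 13608 cells were kept. Barcodes shared between the 2 skin mice numbered 62, and the 2 cultured matrices shared 0. Cells were clustered without the 8 members. Of 34 clusters, 22 were named by marker genes as 15 classes, 6 of them epithelial with 8041 cells (29.5%). The 12 unnamed clusters held 5331 cells (19.6%). Among them, clusters of 1794, 624, 464 and 149 cells scored best for IRS, ORS, companion layer and ORS markers of the follicle. Orders of the classes leave such cells out, so the 6 epithelial classes may not cover the whole epithelium. The methods describe a sort for CD45-CD31-CD140a-CD117- cells, yet fibroblast-like cells made up 38.5% of those kept, and immune-like, endothelial-like and melanocyte-like clusters were present. For the suprabasal epidermis-like class, the sebaceous list scored second (3.22 against 3.87). Its leading genes included Cst6, Krt79 and Defb6 beside Krtdap and Krt10, so its levels may not be those of epidermis alone. Levels are CPM of UMIs summed over the cells of a class in each mouse, given as a description with no test. The study removed ambient RNA, which comes from outside the cell, with SoupX, but this was not done here. Its part in low levels was not tested. Skeletal muscle-like cells, with a median of 1876.5 UMIs, had the highest non-epithelial means of Grhl1 (45.5 CPM), Grhl2 (37.9) and Zfp750 (24.9). The 10x assay reads 3' ends, so levels are compared between classes and not between genes.

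Grhl1 was highest in hair shaft medulla-like (209 and 239 CPM), inner root sheath (IRS)-like (185 and 230) and hair shaft cortex-like cells (171 and 191). The IRS-like range overlapped both others, while the medulla-like range lay above the cortex-like one. It was lower in suprabasal epidermis-like cells (146 and 113), hair matrix-like cells (52.2 and 64.0) and outer root sheath (ORS)-like cells (21.9 and 28.2), and means in the 9 other classes lay between 9.15 and 45.5. The gene was thus 8.95 times as high in medulla-like as in ORS-like cells. Grhl2 was spread over the epithelium, with means from 89.1 to 153 CPM in the 6 epithelial classes and from 7.20 to 37.9 elsewhere. Each epithelial class overlapped the next in the order of means, but IRS-like cells (72.7 and 106) lay below matrix-like (114 and 192) and medulla-like cells (114 and 155). Within the matrix-like class, a smaller cluster led by Tmtc1, Edar and Robo1 had 335 and 387 CPM of Grhl2. Grhl3 was low throughout, with 23.8 and 29.6 CPM in IRS-like cells, 12.1 and 19.6 in cortex-like cells, 11.4 and 10.8 in suprabasal cells and 1.58 and 1.93 in medulla-like cells. Outside the epithelium its means lay between 0.771 and 2.84.

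Ovol1 peaked in cortex-like cells at 172 and 195 CPM, above medulla-like cells at 101 and 104. Suprabasal cells (85.8 and 46.5), IRS-like cells (65.0 and 60.4) and matrix-like cells (55.3 and 49.4) followed, and the suprabasal range overlapped both others. In ORS-like cells Ovol1 was 4.13 and 4.19 CPM, within the range of 3.82 to 11.5 of the non-epithelial class means. Prdm1 was high in 1 of the 6 named epithelial classes. It measured 221 and 250 CPM in medulla-like cells, against 4.13 and 3.61 in cortex-like cells and 2.33 and 2.59 in IRS-like cells, a 60.9-fold and a 95.8-fold difference. In suprabasal epidermis-like cells it measured 4.90 and 1.17 CPM. Outside the epithelium, mural-like cells (36.6 and 76.3) and dermal papilla-like cells (49.3 and 44.3) held the most Prdm1, and these overlapped.

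Zfp750 differed from Prdm1 in the hair shaft. It measured 219 and 233 CPM in IRS-like cells and 204 and 194 in cortex-like cells, but 12.3 and 14.5 in medulla-like cells, which is 16.9-fold and 14.9-fold lower and within the non-epithelial range of 5.23 to 24.9. Suprabasal cells held 139 and 94.8 CPM, and an unnamed cluster led by Pthlh, Krt6a and Krt14 held 181 and 127. Klf4 was highest in fibroblast-like cells (518 and 464 CPM), followed by suprabasal epidermis-like (426 and 355) and endothelial-like cells (287 and 370), of which the latter pair overlapped. Fibroblast-like clusters were uneven between the mice, with 1774 of 1829 cells of one from mouse 1 and 2018 of 2288 cells of another from mouse 2. Among the named classes Klf4 was lowest in ORS-like cells (33.1 and 32.1), while an unnamed cluster with Aqp3, Col17a1 and Krt15 among its leading genes had 596 and 289. Maf was also high outside the epithelium, at 541 and 343 CPM in adipocyte-like and 387 and 422 in immune-like cells. The adipocyte-like name is weak: 3 adipocyte markers were detected, and the fibroblast list scored second (1.13 against 2.54). Its leading genes included Car3 and Fabp4 but also Fgf10, Cited1 and Adam12. Among epithelial classes Maf reached 198 and 220 in IRS-like cells and was low in cortex-like (18.9 and 21.9) and matrix-like cells (19.8 and 26.7), which overlapped.

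**Figure D4:**
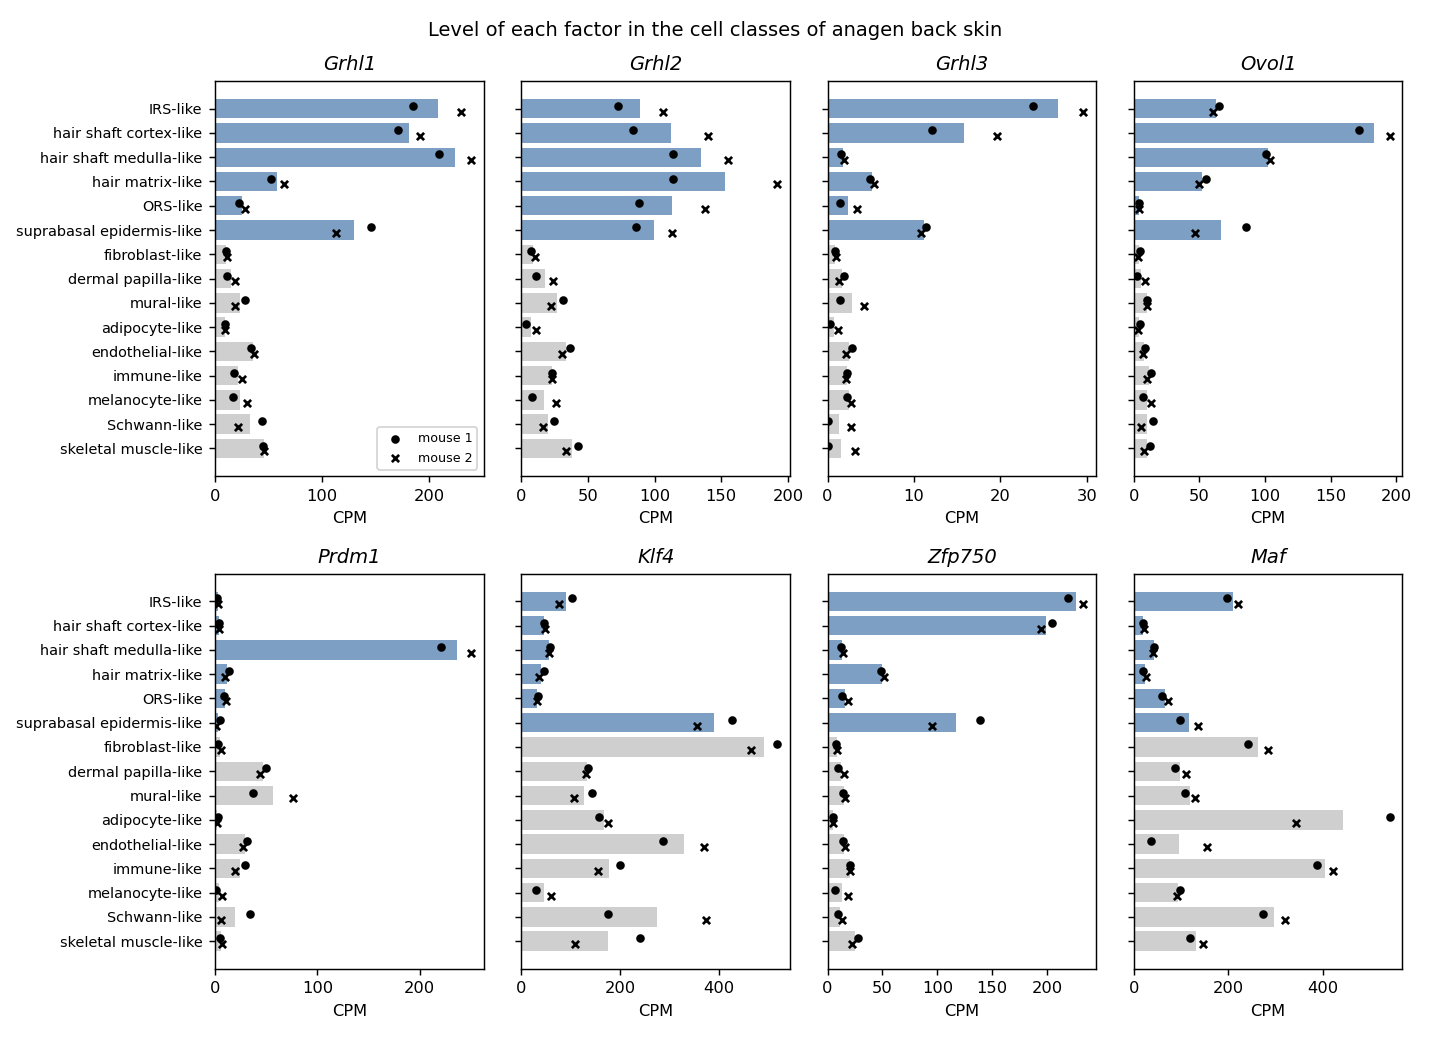
Level of each factor in CPM (linear axes from 0) in 15 cell classes of anagen back skin, with bars at the mean of 2 mice, a point for mouse 1 and a cross for mouse 2, epithelial classes in blue and others in grey. Prdm1 was concentrated in medulla-like cells (221 and 250), where Zfp750 was at 12.3 and 14.5, and Klf4 and Maf were high in several non-epithelial classes.

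Genes with a similar pattern were found by Pearson correlation of log2(CPM + 1) over 31 clusters with at least 50 cells in each mouse, as a description of points that share libraries and differ in depth. For Grhl1 they included Mpzl2 (0.923) and Casz1 (0.904), and for Grhl2 Esrp1 (0.972), Dsg2 (0.966) and Hook1 (0.963). Grhl3 was most like Zfp750 (0.901), Foxn1 (0.88) and Nrarp (0.824), and the genes close to Zfp750 included Grhl3 (0.901) and Rhov (0.865). Ovol1 resembled Elmod1 (0.914) and Sox21 (0.9). Klf4 resembled Emp1 (0.902), Anxa1 (0.887) and 1500015L24Rik (0.883). Prdm1 and Maf had no close match, with Vat1l (0.732), Tmem38b (0.676) and P3h2 (0.656) for Prdm1 and Sh3bgrl3 (0.725), Postn (0.725) and Slc9a9 (0.71) for Maf. Among the members themselves, Grhl1 and Ovol1 correlated at 0.889 and Grhl1 and Grhl2 at 0.839, and Klf4 and Maf at 0.537. Opposite patterns were found for Grhl2 and Klf4 (-0.64), Grhl2 and Maf (-0.558) and Grhl1 and Klf4 (-0.504), and Prdm1 and Zfp750 stood at -0.0486.

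Levels in IRS-like cells depended on which cells were kept. With 1000 or more genes and under 5% mitochondrial UMIs, which also changed the clusters that made up the class, IRS-like means fell from 208 to 98.7 CPM for Grhl1, from 226 to 106 for Zfp750, from 209 to 102 for Maf, from 26.7 to 11.8 for Grhl3, from 62.7 to 35.3 for Ovol1 and from 89.9 to 58.5 for Klf4. In cortex-like cells the same filter took Ovol1 from 183 to 117 and Maf from 20.4 to 37.9. Klf4 in adipocyte-like cells went from 167 to 290, and with doublet calls kept Zfp750 in matrix-like cells went from 50 to 86.9.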

How the data were processed

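Of 27 samples listed for the series, the 8 libraries of RNA-seq and 4 matrices of single cells were analyzed, while those of ATAC-seq and CUT&RUN were not analysed here. Estimated counts of the RNA-seq libraries, made by the authors on mm10 with Salmon 1.4.0, were deposited per gene without normalization. A second table holds a normalized signal that the authors deposited, and was used only in an alternative. UMI counts of called cells were deposited as whole numbers from Cell Ranger (7.0.1 in the submitters' processing notes).

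Estimated counts were rounded and tested with the quasi-likelihood method of edgeR 4.0.16 (R 4.3.3) in 1 fit of 8 libraries, after TMM scaling and filterByExpr, with Benjamini-Hochberg adjustment, called at adjusted p under 0.05. The labels name mouse 1 or mouse 2 of a genotype as the source of each library, in both media, so numbers were read as pairing the media within a genotype. Deviations of same-numbered libraries had correlations of 0.0668 (wild-type) and -0.0188 (Rxra cKO) over 15965 genes, and the fit was unpaired. HTODemux (Seurat 5.3.0) assigned the hashtags. A cell needed 500 genes, 1000 UMIs and a mitochondrial share below 10% to enter. Cultured cells were summed by condition and mouse, and sums of at least 5 cells entered an edgeR fit whose calls needed an adjusted p under 0.01 and a change over 1 in log2 units. Skin doublets were called with Scrublet (5.77% and 2.21%) and clusters made in scanpy 1.11.5, with no removal of ambient RNA. A cluster was named from at least 3 detected markers. Both fits were tested on simulated data.

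All 8 members are named in each comparison. From each list the 2 genes with the lowest and the 2 with the highest wild-type medium effect are named, with known targets, and for likeness in skin the 3 genes with the highest correlation. Some genes that this rule names are not reported here. Members and lists were chosen with earlier results of these data known. The alternatives tried were no low-count filter, DESeq2 1.42.0, other call rules, leaving out each library, a replicate block, fitting only the libraries compared, limma 3.58.1 on log2 of the normalized signal, and other rules for cells.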

Additional observations from a re-analysis of the deposited data

Results flagged for a closer look

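The response to atRA+PKCi differed between wild-type and Rxra cKO for 7 of the 8 factors by a test of the difference itself, the edgeR interaction. It was negative for each, against 13.3% of all genes called negative. At an adjusted p under 0.01 and a change over 1 in log2 units, 3 members passed. The log2 fold change in wild-type minus that in Rxra cKO was -2.63 for Prdm1, -2.33 for Grhl1, -1.31 for Zfp750, -1.0 for Maf, -0.89 for Ovol1, -0.76 for Grhl3 and -0.69 for Klf4. Zfp750 and Maf changed direction between the genotypes, while the other 5 fell in both. The rise of Zfp750 in Rxra cKO was 0.49. It was 0.38 without the first Rxra cKO FBS library and 0.41 without the first Rxra cKO atRA+PKCi library, and its call was lost in both. Groups of 2 libraries were too small to look for single outlying samples.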

How the results depend on the processing

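With 2 libraries per group, a called difference rests on 4 residual degrees of freedom and on spread that edgeR borrows from other genes. The cultured sums rest on 5 to 113 cells. A difference that missed a test is thus not shown to be absent. Of 592 alternative values for the members in RNA-seq, 563 kept their side of the threshold, 23 lost and 6 gained a call. For comparisons of 2 groups, these include fits without a library of another group. Such fits could change a call only through the spread, scaling and filter shared by all libraries, so they raise the number kept. Direction was compared only where the main or the alternative fit gave a call, and 0 of those reversed. In cultured cells 202 of 210 kept their side, 6 lost and 2 gained a call. Of 592 alternative skin levels, 490 stayed within 1 SD of the mice and 102 moved. With 2 mice, leaving out either one always stays within 1 SD, so those alternatives could not move by this rule. Maf in endothelial-like cells, for example, had a mean of 95.3 CPM, but 154 without mouse 1 and 36.6 without mouse 2. The cause of these changes was not tested.

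Under the stricter rule used for cells, calls over all genes were 1381 higher and 1579 lower for the medium in wild-type. Among members, Zfp750 (-0.82) and Maf (-0.58) lost their call there. For the medium in Rxra cKO they were 817 and 1041 (members 0 and 3), and for genotype in FBS 1105 and 656 (members lower 1). For genotype in atRA+PKCi they were 1406 and 675 (members lower 0), and Ovol1 (0.72) lost its call as higher. For the interaction they were 440 and 694 (members lower 3). limma with a pseudocount of 1 or 0.5 called 1 member lower for genotype in atRA+PKCi and 1198 or 1183 genes higher for the interaction. Leaving out 1 library gave 1 to 2 members higher, 2133 to 3724 genes higher and 2326 to 3890 lower for the medium in Rxra cKO, 0 to 1 members higher for genotype in FBS, 1 to 2 members lower and 1971 to 3555 genes lower for genotype in atRA+PKCi, and 961 to 1878 genes higher and 1375 to 2484 lower for the interaction. The replicate block changed 1 call of the members, that of Grhl2 in the interaction (-0.32, edgeR adjusted p = 0.0467). For the medium and the interaction it paired libraries of the same mouse within a genotype. For genotype within a medium it was a term for the replicate number across genotypes, which the labels do not give as the same mouse. The low correlations of same-numbered libraries are given with the processing.

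For BMP2/4 against B-27, 27 genes were higher and 331 lower. The higher count was 84 with no filter, 89 at a mitochondrial limit of 20%, 72 with hashtags assigned by share and 96 at adjusted p under 0.05, and the lower count was 543 with hashtags by share and 554 at adjusted p under 0.05. Leaving out 1 sum gave 2 to 7 higher, 57 to 231 lower and 0 to 1 members lower. For Rspo+BMP2/4 against BMP2/4, no filter gave 4 higher and 4 lower, and leaving out 1 sum gave 0 to 1 higher and 0 to 3 lower. For RARi, no filter gave 6 higher and 1 lower.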
